A study of Mus musculus with 16 samples.

Results

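The transcripts of 10 chromatin regulators with known roles in the germinal center (GC) were compared between 4 cMyc+ light zone B cell subpopulations: Ezh2, Kmt2d, Crebbp, Ep300, Dot1l, Dnmt3a, Tet2, Tet3, Hdac3 and Kdm1a. The genes were chosen by name, and all 10 of the 10 names were found among the 51912 genes of the expression table. All 10 also passed the filter of a mean of at least 10 normalized reads that kept 12505 genes for testing. No regulator passed an adjusted threshold in any comparison of the subpopulations. By p, and not by the size of the difference, the lowest pairwise values among these genes belonged to Dot1l, Dnmt3a and Ezh2: the group means of Ezh2 were highest in cMyc+lateCD23lo cells, those of Dnmt3a lowest in cMyc+lateCD23lo cells and those of Dot1l lowest in cMyc+prePB cells. The largest difference, that of Tet3, rested on 1 library.

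Bulk RNA sequencing was performed on 16 libraries, 4 of each subpopulation, from spleens taken on day 7 after intraperitoneal sheep red blood cells. All mice, male and female and 6 to 15 weeks old, were homozygous for the cMyc-gfp allele on a C57BL/6J background, which makes a GFP-cMyc fusion from the endogenous locus, so every group carries the reporter, and no cMyc-negative or unimmunized group was analysed here. After depletion of CD43+ cells, B220+ CD38low CD95+ GFP+ cells were sorted as cMyc+prePB (CD69hi, named as precursors of plasmablasts), cMyc+early (CD23hi CD21/35hi), cMyc+lateCD23int (CD23int CD21/35int) and cMyc+lateCD23lo (CD23lo CD21/35lo). The comparisons address whether these transcripts differ between stages that GC B cells pass through after positive selection. The labels do not say which animals or how many gave each library, so p-values measure the spread between these libraries. Library numbers are shared between the groups, and the reported model does not pair libraries by number. In sorted bulk samples fewer cells of one kind and less RNA per cell cannot be told apart.

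Each library held between 19812080 and 25795815 reads, recovered from the deposited values, and 14650 to 15573 detected genes. All 13 B cell and GC markers were present, with Ms4a1 (CD20) at group means of 53994 to 90808 normalized reads. Of the 8 T cell markers, Lck, which GC B cells can also express, stood at 2157 to 6839, and of the others Trac reached 110.4, Cd5 74.4, Cd3d 73.9, Cd8a 66.2, Cd3g 48.8, Cd3e 30.7 and Cd4 18.3. The 8 myeloid markers summed to 1.87 to 1174 in the cMyc+lateCD23lo libraries and to at most 603 elsewhere, with Lyz2 at up to 968 and Cd14 at up to 2.04. Of the erythroid markers, Hba-a2 reached 1944, Hbb-bs 1524 and Hbb-bt 1367. The part of these transcripts in the values below was not tested. Of the 6 plasma cell markers, 4 had their highest mean in cMyc+prePB: Xbp1 (4820 against 3599 to 4250.5), Irf4 (729 against 596 to 720.0), Sdc1 (27.4 against 0.489 to 13.2) and Tnfrsf17 (6.09 against 0). Jchain and Prdm1 (Blimp-1) had theirs in cMyc+lateCD23lo, at 64836 against 55443 in cMyc+prePB and at 82.9 against 35.2. Their multigroup adjusted p were 0.102 and 0.111 (limma), and both were lowest in cMyc+early, at 23623 and 2.74. Prdm1 in cMyc+prePB ranged from 6.31 to 119. Of the plasma cell markers 1 was called, lower in cMyc+early than in cMyc+lateCD23lo (adjusted p under 0.05, limma). The Sdc1 and Tnfrsf17 means of cMyc+prePB came mostly from a single library each, at 107.5 and 24.3. The Xbp1 and Irf4 values of cMyc+prePB overlapped those of other groups, with multigroup adjusted p of 0.519 and 0.907 (limma). Among the sort markers, Fcer2a (CD23) averaged highest in cMyc+early, at 13398, and lowest in cMyc+lateCD23lo, at 2274 (multigroup adjusted p = 0.0130, limma). Cr2 (CD21/35) averaged 6638 in cMyc+early, 6928 in cMyc+lateCD23int, 4738 in cMyc+lateCD23lo and 1860 in cMyc+prePB (0.0219, limma). Cd69 averaged 3453 in cMyc+prePB but 3762 in cMyc+lateCD23int (0.687, limma).

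These regulators write, read out or remove the marks that decide which genes a GC B cell keeps silent or poised. EZH2 is the catalytic subunit of Polycomb repressive complex 2 (PRC2) and methylates lysine 27 of histone H3. KMT2D places activating methyl marks on enhancers, and CREBBP and EP300 acetylate histones there. DOT1L methylates lysine 79 of histone H3 along transcribed genes. DNMT3A methylates DNA de novo, and TET2 and TET3 oxidize methylcytosine. HDAC3, the deacetylase of the NCoR/SMRT corepressor that BCL6 recruits, and KDM1A (LSD1), the demethylase of the CoREST complex, remove activating marks. Mutations of EZH2, KMT2D, CREBBP, EP300 and TET2 recur in lymphomas of GC origin.

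The start regions of the 4 genes with any unadjusted pairwise p under 0.05 are shown from 120 bases before to 30 bases after a RefSeq start (GRCm38.p6), since their values are the ones described most closely below. Capitals mark 3 motifs that do not overlap here, each searched on both strands. The first is the word CCAAT. The second is the E-box, spelled CACGTG. The third is an E2F word with any of 4 spellings, which are TTTGGCGC, TTTCCCGC, TTTCGCGC and TTTGCCGC. The Ezh2 region is at chr6:47595001-47595150 on the minus strand, the Dnmt3a region at chr12:3891624-3891773 on the plus strand, the Dot1l region at chr10:80755083-80755232 on the plus strand and the Crebbp region at chr16:4213375-4213524 on the minus strand.
Ezh2: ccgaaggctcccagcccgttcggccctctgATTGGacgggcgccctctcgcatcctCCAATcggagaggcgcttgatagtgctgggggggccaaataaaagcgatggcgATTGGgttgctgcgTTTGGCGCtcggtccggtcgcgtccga
Dnmt3a: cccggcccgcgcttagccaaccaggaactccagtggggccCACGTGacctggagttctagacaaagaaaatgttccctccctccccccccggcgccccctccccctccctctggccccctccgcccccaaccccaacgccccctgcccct
Dot1l: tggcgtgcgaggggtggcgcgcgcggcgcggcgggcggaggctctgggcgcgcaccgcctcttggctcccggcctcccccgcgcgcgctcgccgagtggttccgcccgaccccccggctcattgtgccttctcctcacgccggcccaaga
Crebbp: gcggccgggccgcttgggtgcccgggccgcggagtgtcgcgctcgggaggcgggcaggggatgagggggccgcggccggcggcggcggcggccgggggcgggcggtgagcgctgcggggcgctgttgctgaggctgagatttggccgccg

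In these letters Ezh2 alone carried 3 CCAAT words and an E2F word, the latter 4 bases past the start, and the internal one of 3 Dnmt3a starts carried an E-box. The windows of the earlier Dnmt3a starts, not printed, held none of the 3 motifs. Which start these cells use was not tested. Over all 32851 RefSeq windows of 300 bases, 37.4% held a CCAAT word, 7.15% the E-box and 2.26% an E2F word. Windows were found for 9 of the 10 regulators, 11 windows in all. Of the regulators not printed, Tet3 and Kdm1a each had a single CCAAT word, and Kmt2d, Ep300 and Tet2 had none of the 3 motifs. A match is a run of letters and was not tested as a binding site.

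By the annotation of the same build (GENCODE), Ezh2 spans chr6:47530139-47595341, Kmt2d chr15:98831669-98871204, Crebbp chr16:4081328-4213997, Ep300 chr15:81585351-81652077 and Dot1l chr10:80755206-80795461. Dnmt3a spans chr12:3806007-3914443, Tet2 chr3:133463679-133545139, Tet3 chr6:83362373-83459084 and Kdm1a chr4:136550540-136602723. Exons of Gm26625 lie opposite those of Ezh2. That gene averaged 36.7 normalized reads against 5137 for Ezh2, and whether the counting used strand is not given in the sources used here.

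Levels between genes were compared as normalized reads per kb of exon, with all GENCODE exons of a gene joined as its length. Which transcripts these cells make, and how evenly reads covered them, was not tested. Ezh2 was highest at 769 ± 185 (SD, n = 16 libraries), followed by Crebbp at 399 ± 60.4 and Hdac3 at 357 ± 84.3. Kdm1a stood at 174.7 ± 59.0 and Dot1l at 80.5 ± 21.3. Kmt2d (35.3 ± 11.0), Dnmt3a (32.3 ± 13.5), Tet2 (16.3 ± 5.69), Tet3 (15.5 ± 7.67) and Ep300 (10.9 ± 4.64) formed the lower end. Some steps of this order held in nearly every library: Ezh2 exceeded Crebbp in 15 of 16 libraries, Hdac3 exceeded Kdm1a in 15, Kdm1a exceeded Dot1l in all 16 and Dot1l exceeded Kmt2d in 15. Dnmt3a exceeded Tet2 in 13 libraries and Crebbp exceeded Hdac3 in 12, where the means differed by less than the sum of the SDs. Kmt2d exceeded Dnmt3a in 9 libraries, and Tet2 exceeded Tet3, and Tet3 exceeded Ep300, in 10 each.

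**Figure D1:**
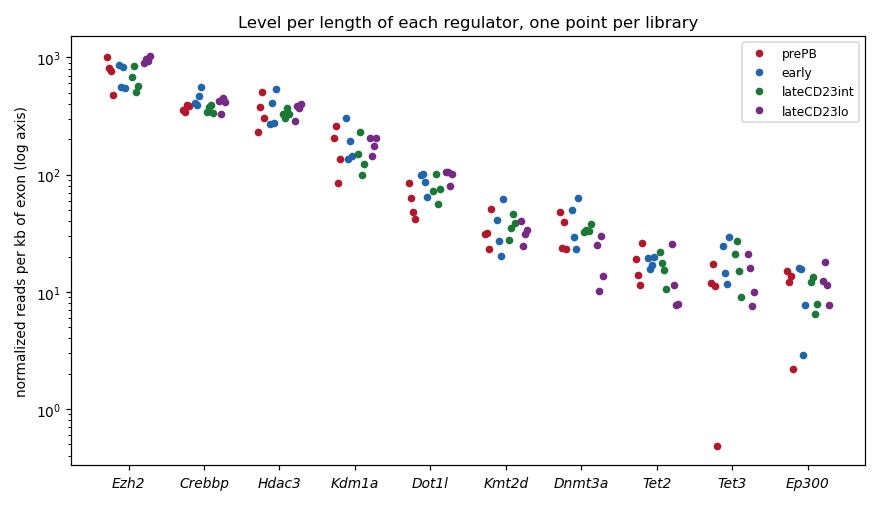
Normalized reads per kb of exon (log axis) for the 10 regulators, ordered by their mean, with one point per library coloured by subpopulation. Ezh2 lies at the top with 480 to 1036 reads per kb, and the isolated low point of Tet3, at 0.486, is a cMyc+prePB library.

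Across the 4 subpopulations together (limma F test on log2 of the normalized count plus 1, Benjamini-Hochberg adjusted over 12505 genes), 0 of the 10 regulators had an adjusted p under 0.05, where 0.408% of all genes did, and the lowest adjusted p among them was 0.475. At an unadjusted p of up to 0.04, the display threshold of the study, the count was 0 of 10 against 8.55% of all genes. At an unadjusted p under 0.05 it was 2 of 10, Dnmt3a (adjusted p = 0.475) and Dot1l (adjusted p = 0.477), against 10.2% of all genes. Ezh2 (adjusted p = 0.537), Crebbp (adjusted p = 0.604) and Tet3 (adjusted p = 0.659) came next. Kmt2d (adjusted p = 0.986) and Hdac3 (adjusted p = 0.991) had the highest values. On recovered reads, edgeR and DESeq2 also called 0 of 10 at an adjusted p under 0.05.

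In the pairwise tests of the same model 0 of 10 regulators passed an adjusted p under 0.05 in each of the 6 comparisons. Among all genes the share called was 0.192% between cMyc+prePB and cMyc+early, 0.008% between cMyc+early and cMyc+lateCD23int, 0.008% between cMyc+lateCD23int and cMyc+lateCD23lo, 0.28% between cMyc+early and cMyc+lateCD23lo, 0.144% between cMyc+prePB and cMyc+lateCD23int and 0.264% between cMyc+prePB and cMyc+lateCD23lo. At an unadjusted p under 0.05 the regulators gave 8 of 60 tests, in 4 genes. They were 1 of 10 in cMyc+prePB against cMyc+early (8.58% of all genes) and 1 in cMyc+early against cMyc+lateCD23int (3.71%). There were 2 each in cMyc+lateCD23int against cMyc+lateCD23lo (6.28%), in cMyc+early against cMyc+lateCD23lo (10.3%) and in cMyc+prePB against cMyc+lateCD23lo (12.7%), and 0 in cMyc+prePB against cMyc+lateCD23int (8.77%). These 6 comparisons share groups and are not independent.

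**Figure D2:**
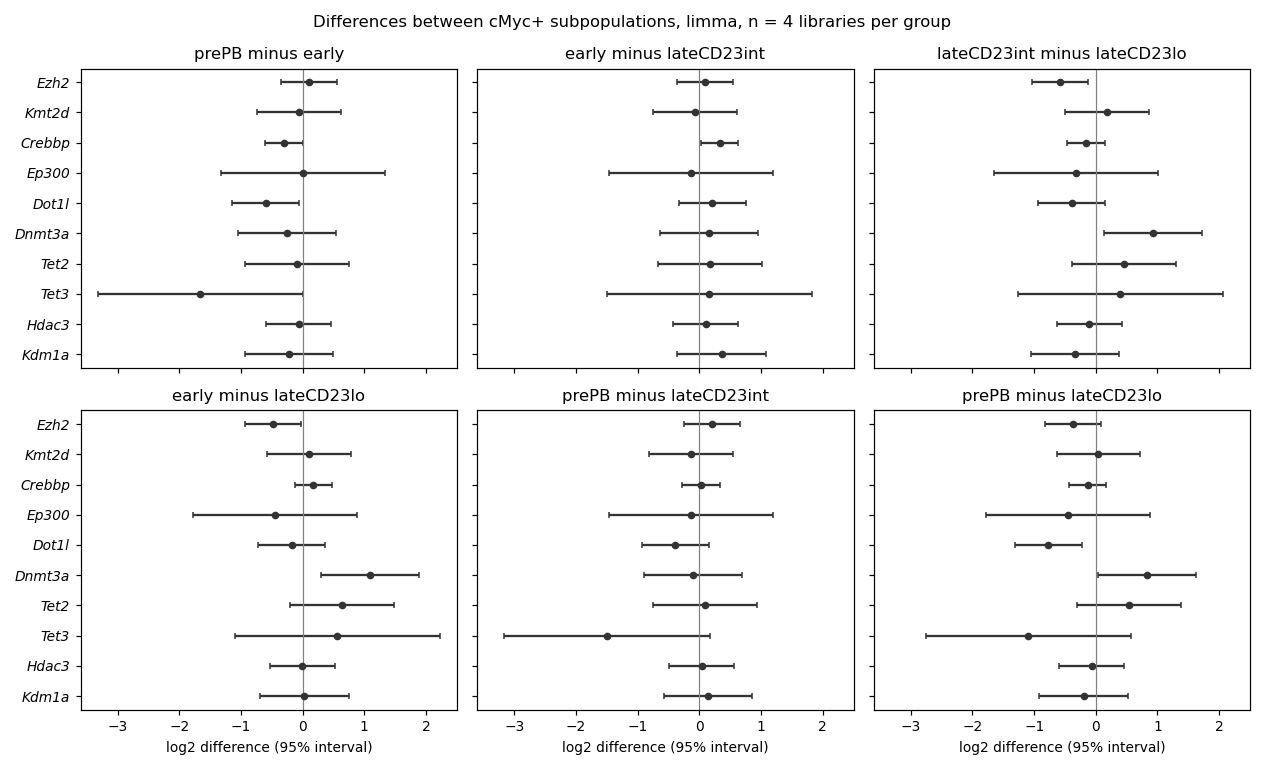
Difference of mean log2 values between subpopulations for each regulator, in 6 panels named first minus second group, with points for the estimate and bars for its 95% interval from limma (n = 4 libraries per group). The intervals are narrowest for Crebbp, at 0.303 on either side, and widest for Tet3, at 1.66, and those that leave out 0 belong to Ezh2, Crebbp, Dot1l and Dnmt3a.

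The PRC2 methyltransferase Ezh2 was at its highest in cMyc+lateCD23lo. The 4 cMyc+lateCD23lo libraries held 5993, 6444, 6245 and 6917 normalized reads, and the cMyc+lateCD23int libraries 4573, 5659, 3404 and 3835. In cMyc+early the values were 5728, 3715, 5595 and 3693, and in cMyc+prePB 6684, 5419, 5078 and 3208. Every cMyc+lateCD23lo library was therefore above every cMyc+lateCD23int and every cMyc+early library, while the cMyc+prePB libraries overlapped all other groups. The group mean of 6400 ± 391 (SD, n = 4) in cMyc+lateCD23lo compared with 4368 ± 987 in cMyc+lateCD23int, a log2 difference of -0.58 ± 0.22 (SE) for cMyc+lateCD23int minus cMyc+lateCD23lo with an adjusted p of 0.715 (limma). Between cMyc+early and cMyc+lateCD23lo the log2 difference was -0.48 ± 0.22, with an adjusted p of 0.452 (limma).

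Several proliferation genes had their highest mean in cMyc+lateCD23lo as well. Mki67, the Ki-67 antigen, averaged 18038 normalized reads there against 13006 in cMyc+lateCD23int and 13199 in cMyc+early. Pcna, the replication clamp, averaged 18650 against 15654 and 12651. Of the 19 proliferation markers 3 had a lower mean log2 value in cMyc+lateCD23lo than in cMyc+lateCD23int. Against cMyc+early 7 of the 19 were lower in cMyc+lateCD23lo, and against cMyc+prePB 5. Mcm2, for example, averaged 1888 in cMyc+lateCD23lo and 2799 in cMyc+prePB. None of the markers passed an adjusted p under 0.05 in the model without a replicate block. Their summed level ranged from 126285 to 193886 in cMyc+lateCD23lo, 126775 to 150835 in cMyc+lateCD23int, 135126 to 166251 in cMyc+early and 130321 to 154020 in cMyc+prePB. Over the 16 libraries the correlation of Ezh2 with the mean log2 value of these markers was r = -0.05. After the group means were taken out it was -0.34. The part of proliferation in the Ezh2 values was not tested.

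Dnmt3a, the de novo DNA methyltransferase, had its lowest values in cMyc+lateCD23lo, at 420.3, 169, 495 and 225 normalized reads. The cMyc+lateCD23int libraries lay close together at 543, 563, 552 and 631. In cMyc+early the values spread over 827, 484, 389 and 1055, and in cMyc+prePB over 801, 394, 661 and 388. All cMyc+lateCD23int libraries were above all cMyc+lateCD23lo libraries, and the other 2 groups overlapped cMyc+lateCD23lo. The lowest p was for cMyc+early against cMyc+lateCD23lo, a log2 difference of 1.09 ± 0.38 (SE), or 2.13-fold, with an adjusted p of 0.317 (limma). The log2 differences from cMyc+lateCD23lo were 0.93 for cMyc+lateCD23int (adjusted p = 0.754, limma) and 0.83 for cMyc+prePB (adjusted p = 0.370, limma), so Dnmt3a had the lower mean in cMyc+lateCD23lo in each of the 3 comparisons and passed in none.

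Between cMyc+lateCD23int and cMyc+lateCD23lo, 2 of the 10 regulators, Ezh2 and Dnmt3a, had groups that did not overlap, in opposite directions, against 3.77% of all genes in either direction. Between cMyc+early and cMyc+lateCD23lo it was Ezh2 alone, 1 of 10 against 6.23% of all genes. In the other 4 comparisons no regulator separated: cMyc+prePB against cMyc+early (4.23% of all genes), cMyc+early against cMyc+lateCD23int (2.48%), cMyc+prePB against cMyc+lateCD23int (5.21%) and cMyc+prePB against cMyc+lateCD23lo (6.56%). With 10 genes, these counts rest on a gene or a pair of genes each.

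Dot1l, the H3K79 methyltransferase, was lowest in cMyc+prePB. The cMyc+prePB libraries held 732, 548, 420.2 and 365 normalized reads, and the cMyc+lateCD23lo libraries 920.3, 923, 701 and 886. The cMyc+early values were 872, 879, 751 and 559.8, and the cMyc+lateCD23int values 633, 884, 492 and 652. The highest cMyc+prePB library exceeded the lowest library of every other group, so the groups overlapped. The difference of cMyc+prePB from cMyc+lateCD23lo had the lowest p of all 60 pairwise tests of the regulators, a log2 difference of -0.77 ± 0.26 (SE) with an adjusted p of 0.235 (limma). From cMyc+early it was -0.60 ± 0.26, with an adjusted p of 0.554 (limma). In cMyc+prePB minus cMyc+lateCD23lo the difference was -0.62 without cMyc+prePB replicate 4 and -0.96 without cMyc+prePB replicate 1, with adjusted p of 0.506 and 0.074 (limma).

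Crebbp, the more abundant of the acetyltransferase pair, had its highest mean in cMyc+early. The cMyc+early libraries held 5550.4, 5299, 6356 and 7654 normalized reads, the cMyc+lateCD23int libraries 4681, 5100.2, 5315 and 4527, the cMyc+prePB libraries 4792, 4599.7, 5361 and 5226 and the cMyc+lateCD23lo libraries 5789, 4441, 6080.0 and 5662. The cMyc+early group stretched furthest upward and overlapped each of the others. The log2 difference of cMyc+early from cMyc+lateCD23int was 0.33 ± 0.14 (SE), with an adjusted p of 1 (limma). Its 95% interval was 0.03 to 0.63.

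Ep300, the paralog of Crebbp, was the regulator with the lowest level per kb, and its counts were small. The cMyc+early libraries ranged from 41.4 to 227 normalized reads, the cMyc+prePB libraries from 31.6 to 214, the cMyc+lateCD23int libraries from 92.4 to 191 and the cMyc+lateCD23lo libraries from 111 to 254.5. All 4 groups overlapped. Its lowest p was for cMyc+early minus cMyc+lateCD23lo, where the log2 difference was -0.45 ± 0.63 (SE) with an adjusted p of 0.849 (limma) and an interval of -1.78 to 0.88. Without cMyc+early replicate 3, at 41.4, this difference was 0.07. The log2 difference of 1.09 seen for Dnmt3a would be within the half-width of the Ep300 interval. Each Ep300 value rested on 35 to 272 reads.

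The DNA dioxygenases Tet2 and Tet3 were both low. Tet2 held 325, 235, 192 and 443 normalized reads in cMyc+prePB, 328, 262, 288 and 335 in cMyc+early, 372, 296, 258 and 177 in cMyc+lateCD23int, and 431, 192, 130.5 and 132 in cMyc+lateCD23lo. The groups overlapped, and 3 of the 4 cMyc+lateCD23lo libraries were below every cMyc+early library. The log2 difference of cMyc+early from cMyc+lateCD23lo was 0.63 ± 0.40 (SE), with an adjusted p of 0.608 (limma). Without cMyc+lateCD23lo replicate 1, at 431, it was 1.01 with an adjusted p of 0.36 (limma).

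Tet3 held 197, 287, 186 and 8.12 normalized reads in cMyc+prePB against 414, 242, 195 and 488 in cMyc+early. It held 351, 454, 250.2 and 152 in cMyc+lateCD23int and 350.2, 268, 127 and 166 in cMyc+lateCD23lo. The value of 8.12, in cMyc+prePB replicate 4, came from 9 reads, and the other libraries held 127 or more. With it, the log2 difference of cMyc+prePB from cMyc+early was -1.66 ± 0.79 (SE), the largest of the 60, with an adjusted p of 0.586 (limma). Without that library the difference was -0.51, with an adjusted p of 0.909 (limma).

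The remaining regulators, Kmt2d, Hdac3 and Kdm1a, had no unadjusted pairwise p under 0.05. Kmt2d, the enhancer methyltransferase, averaged 684 ± 235 (SD, n = 4) normalized reads in the cMyc+prePB group, 751 ± 368 in the cMyc+early group, 733 ± 153 in the cMyc+lateCD23int group and 647 ± 132 in the cMyc+lateCD23lo group. Its highest group mean was 1.16-fold the lowest. Hdac3 had means of 1447 ± 486, 1514 ± 521, 1354 ± 111 and 1468 ± 215 in the same order, 1.12-fold from the lowest to the highest. Kdm1a had means of 889 ± 396, 1006 ± 402, 778 ± 295 and 946 ± 154, 1.29-fold from the lowest to the highest.

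For these 3 genes all groups overlapped in all 6 comparisons. The comparison with the lowest p was cMyc+lateCD23int minus cMyc+lateCD23lo for Kmt2d, a log2 difference of 0.18 ± 0.32 (SE) with an adjusted p of 0.960 (limma). For Hdac3 it was the same comparison, at -0.11 ± 0.25 with an adjusted p of 0.968 (limma) and an interval of -0.63 to 0.42. For Kdm1a it was cMyc+early minus cMyc+lateCD23int, at 0.36 ± 0.34 with an adjusted p of 1 (limma) and an interval of -0.35 to 1.08. The Kdm1a difference was 0.12 without cMyc+early replicate 1 and 0.59 without cMyc+lateCD23int replicate 2. A p that misses the threshold does not show equal levels, and the intervals state the differences that these libraries allow.

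**Figure D3:**
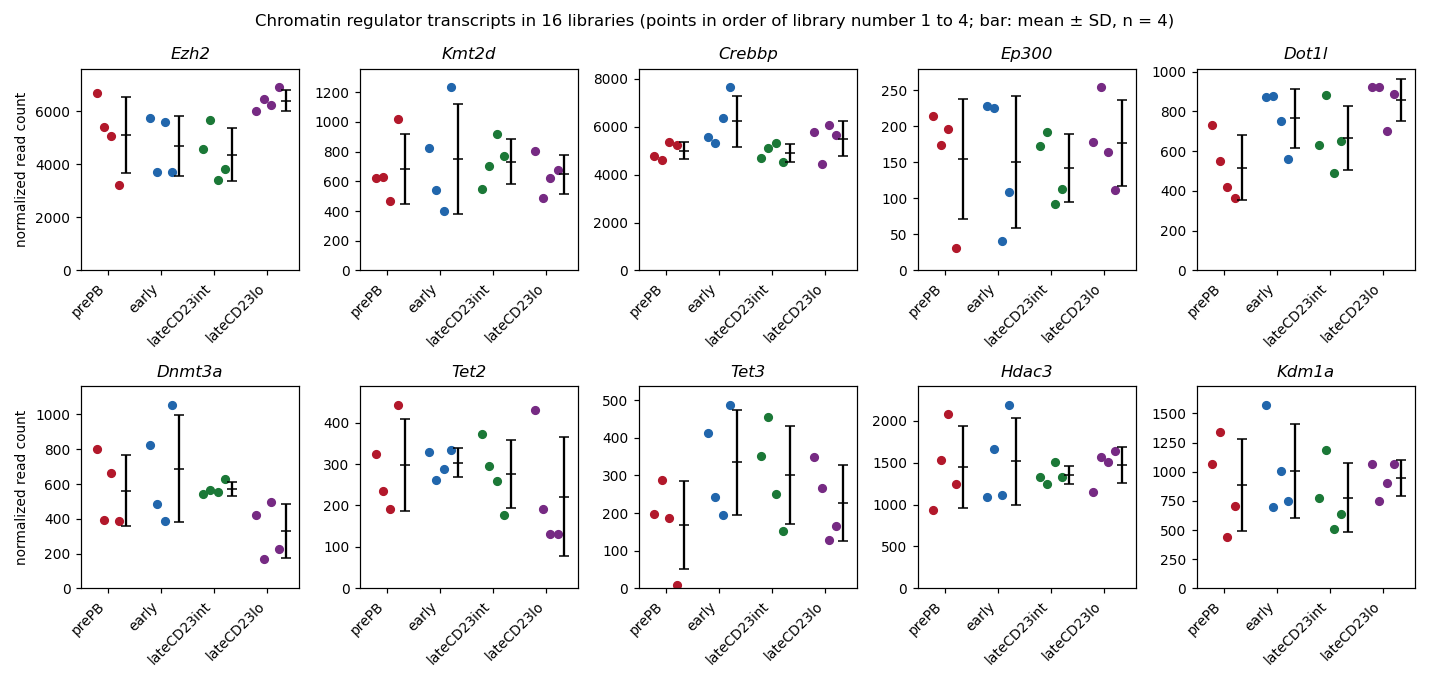
Normalized read count of each regulator in every library (points in order of library number 1 to 4) with the mean and SD of each subpopulation (bar, n = 4), on axes that start at 0. The 4 Ezh2 points of cMyc+lateCD23lo, between 5993 and 6917, lie above all cMyc+early and cMyc+lateCD23int points, and a Tet3 point of cMyc+prePB lies at 8.12.

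Pairs of paralogs were compared as log2 ratios within a library, which do not depend on the scaling of the library. The log2 ratio of Ezh2 to Ezh1 averaged 5.29 ± 0.83 (SD, n = 4) in cMyc+lateCD23lo, and it averaged 4.02 ± 0.75 in cMyc+lateCD23int, 4.28 ± 1.18 in cMyc+early and 4.24 ± 1.44 in cMyc+prePB. Ezh1, the PRC2 methyltransferase of resting cells, averaged 184 normalized reads in cMyc+lateCD23lo and 271 in cMyc+early. Crebbp exceeded Ep300 in every library, by log2 ratios of 4.13 to 7.37, with levels of 399 and 10.9 reads per kb. Kmt2d and Kmt2c were near parity, at 35.3 and 35.2 reads per kb, and so were Tet2 and Tet3, while Tet1 was at 0.443 reads per kb.

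Of the 8 tests of these ratios none passed, and a single ratio could not have passed, since the smallest adjusted p it could reach alone is 0.229. The log2 ratio of Ezh2 to Ezh1 differed by -1.01 ± 0.72 (SE) between cMyc+early and cMyc+lateCD23lo (exact permutation test, two-sided, p = 0.229, adjusted p = 0.914), where the smallest p that 4 against 4 libraries allow is 0.0286. The Tet2 to Tet3 ratio differed by 1.61 ± 1.44 between cMyc+prePB and cMyc+early (exact permutation test, p = 0.286, adjusted p = 0.914) and by 0.21 without cMyc+prePB replicate 4, the library with 9 Tet3 reads. The other 6 exact permutation tests gave adjusted p of 0.914 or 1.

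**Figure D4:**
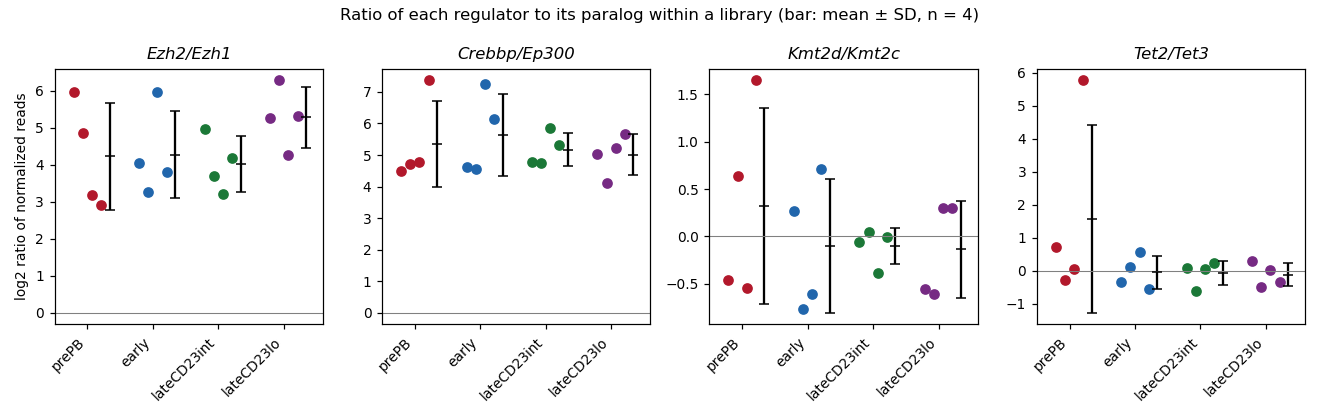
Log2 ratio of normalized reads of a regulator to its paralog in each library (points in order of library number) with the mean and SD of each subpopulation (bar, n = 4); the grey line marks equal reads. Ezh2 and Crebbp exceed their paralogs in every library, and the Tet2 to Tet3 point at 5.77 is cMyc+prePB replicate 4.

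The partners of these regulators were taken as 11 lists with 92 genes, of which 86 passed the filter. No gene of these lists had an adjusted p under 0.05 in the multigroup test or in any pairwise test of the model without a replicate block. At an unadjusted multigroup p of up to 0.04 there were 9 of 86, or 10.5%, against the 8.55% of all genes given above. Between cMyc+early and cMyc+lateCD23lo the median log2 difference was 0.07 over the 10 regulators and -0.25 over the 10 tested PRC2 genes, against -0.01 over all genes. Of these PRC2 genes 4 had the higher mean in cMyc+early, as did 6 of the 10 regulators.

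Among the readers and writers of DNA methylation, Mbd2, a reader of methylated DNA, had the lowest multigroup p of these 11 lists. It averaged 2899 ± 256 (SD, n = 4) normalized reads in cMyc+lateCD23lo, then 2197 ± 695 in cMyc+lateCD23int, 1399 ± 355 in cMyc+early and 1362 ± 404 in cMyc+prePB, with an adjusted p of 0.101 (limma). Every cMyc+lateCD23lo library was above every cMyc+early and every cMyc+prePB library, with log2 differences of -1.08 ± 0.25 (SE) for cMyc+early minus cMyc+lateCD23lo (adjusted p = 0.0855, limma) and -1.13 ± 0.25 for cMyc+prePB minus cMyc+lateCD23lo (adjusted p = 0.0608, limma). The Mbd2 and Dnmt3a means thus lay in opposite directions in cMyc+lateCD23lo, and neither gene passed in this model.

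In PRC2, Rbbp4, a histone-binding subunit, was highest in cMyc+lateCD23lo as Ezh2 was, with means of 8525 there, 7031 in cMyc+lateCD23int, 5824 in cMyc+early and 7032 in cMyc+prePB (multigroup adjusted p = 0.237, limma). Among the H3K27 demethylases Kdm6a (UTX) had a multigroup adjusted p of 0.614 (limma), with means from 639 in cMyc+prePB to 1037 in cMyc+early. In the KMT2 complexes the coactivator Ncoa6 averaged 179 in cMyc+prePB and 412 in cMyc+early without overlap (multigroup adjusted p = 0.412, limma). Among other lysine acetyltransferases Kat7 averaged 780 in cMyc+lateCD23lo and 1490 in cMyc+early (multigroup adjusted p = 0.421, limma).

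Bcl6, the GC repressor that recruits the NCoR/SMRT corepressor with HDAC3, averaged 2966 ± 993 (SD, n = 4) in cMyc+lateCD23lo, then 2385 ± 432 in cMyc+lateCD23int, 2114 ± 419 in cMyc+early and 1679 ± 418 in cMyc+prePB, with a multigroup adjusted p of 0.419 (limma). The group means of Hdac3 itself lay within 1.12-fold. Idh1, which supplies the 2-oxoglutarate that TET enzymes use, averaged 327 in cMyc+prePB and 633 in cMyc+lateCD23int (multigroup adjusted p = 0.462, limma). Rnf2, a PRC1 ubiquitin ligase, averaged 1075 in cMyc+lateCD23lo and 1616 in cMyc+early (multigroup adjusted p = 0.488, limma), and Pbrm1, a SWI/SNF subunit, 5334 and 3807 (multigroup adjusted p = 0.507, limma). The lowest multigroup adjusted p was 0.560 for Mllt1 among the DOT1L partners and 0.664 for Rcor3 in the CoREST list (limma).

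Over the 16 libraries the regulators did not move as one group. The highest Pearson correlations of log2 values between 2 of them were 0.66 for Ep300 and Tet3, 0.62 for Ezh2 and Dot1l and 0.60 for Ezh2 and Kdm1a, and the lowest was -0.55 for Hdac3 and Kdm1a. After the group means were taken out these were 0.77, 0.74, 0.65 and -0.63. The points share libraries and their scaling, and cMyc+prePB replicate 4 holds the lowest Ezh2, Dot1l, Ep300 and Tet3 values of all 16 libraries. With the mean log2 value of the 19 proliferation markers the correlation was 0.60 for Hdac3 and -0.67 for Tet2. These correlations are descriptions, with no test.

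Of all 12505 genes, those most like each regulator over the 16 libraries were Srpk2 (r = 0.93), Selenow (0.91) and Dnajc7 (0.91) for Ezh2, Lcp2 (0.88), Tcp11l2 (0.82) and Bcl2 (0.78) for Dnmt3a, and Ermard (0.89), Taf12 (0.89) and Gm26664 (0.87) for Dot1l. For Crebbp they were Gpr45 (0.77), Anapc4 (0.77) and Rnf19a (0.74), and for Ep300 Gm44199 (0.88), Clspn (0.87) and Gm42908 (0.87). Tet3 was most like Acsl3 (0.91), Wasl (0.90) and Pkn2 (0.89), and Tet2 most like Man1a (0.84), Cfap43 (0.82) and Fam65b (0.81). Kmt2d was most like Tle3, Ell and Mef2d (0.80, 0.80 and 0.79), Hdac3 like Erlin2, Sirt2 and Rabggta (0.83, 0.81 and 0.81), and Kdm1a like Fam98b, Ppig and Golga4 (0.83, 0.82 and 0.81). Each name is the top of a search over all tested genes with 16 points.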

How the data were processed

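Bulk RNA-seq libraries were made from sorted cells with a single-cell/low-input RNA kit. Per the submitters' processing notes, Trimmomatic 0.36, STAR 2.5.2a, RSEM 1.2.31, DESeq2 1.20.0, R 3.5.1 and the build GRCm38 were used. The authors deposited normalized counts, that is gene counts divided by a size factor for each library (signal values, not coverage), for 51912 genes. The deposited values were whole multiples of a step for each library (100% whole), which gave back the reads and the depth. Libraries were assigned to groups from their labels.

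Log2 of the value plus 1 was fitted in 1 model of 16 libraries, over the 12505 genes averaging 10 or more, with limma 3.58.1 (R 4.3.3), with p-values adjusted by Benjamini-Hochberg. Ratios within libraries were tested by exact permutation (scipy). edgeR 4.0.16 and DESeq2 1.42.0 were run on recovered reads as alternatives, besides other pseudocounts, filters, scalings, a replicate block and fits without each library. Length was the union of GENCODE exons; start regions came from RefSeq. All regulators, the genes with the lowest multigroup p of each list and the 3 genes most correlated with each regulator were named. The fits were also run on simulated counts that held no likeness between same-numbered libraries, and that outcome is not used here. Members and lists were chosen with earlier results of these data known.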

Additional observations from a re-analysis of the deposited data

Results flagged for a closer look

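Each group of 4 libraries was checked for a library far from the other 3, over the 10 regulators and the 4 paralog ratios, 56 groups in all. Of these 3 were flagged, and chance flags about 1 in 20 groups. Dot1l in cMyc+lateCD23lo replicate 3, at 701 normalized reads, was far below the other 3 libraries. In cMyc+prePB replicate 4 the log2 ratio of Crebbp to Ep300 was 7.37 and that of Tet2 to Tet3 was 5.77, both far above the other cMyc+prePB libraries, with Ep300 at 31.6 and Tet3 at 8.12 normalized reads in that library.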

How the results depend on the processing

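The count of regulators with an adjusted p under 0.05 stayed at 0 in the multigroup test and in all 6 pairwise tests under each alternative run. The count with an unadjusted multigroup p of up to 0.04, 0 as reported, was 1 with no filter on low values, 1 after rescaling to the same total, 2 with the replicate block, 1 with edgeR and the replicate block, and 0 to 2 without 1 library. Library numbers are shared between groups, but deviations of same-numbered libraries correlated at -0.129 to 0.174 over all genes (5 of 24 pairs over 0.1) and at -0.592 to 0.701 over the 3651 most abundant genes (17 of 24 pairs). The numbers were not taken as pairs because not every pair was over 0.1. Yet for 10 of 16 libraries the best-correlated library of another group had the same number. The mean correlation of same-numbered libraries over the most abundant genes was 0.259. The p-values of the reported model leave out this likeness, and whether partner genes passed depended on that choice. The lowest adjusted p of a regulator with the block was 0.0978, for Dot1l. With the block, partner genes passed an adjusted p under 0.05 (limma): Mbd2 in the multigroup test (0.0378), in cMyc+early against cMyc+lateCD23lo (0.0430) and in cMyc+prePB against cMyc+lateCD23lo (0.0246), Rbbp4 in cMyc+early against cMyc+lateCD23lo (0.0495), and Bcl6 in cMyc+prePB against cMyc+lateCD23lo (0.0173). The proliferation marker Mki67 also passed with the block in cMyc+prePB against cMyc+lateCD23lo (adjusted p = 0.0392, limma). Of all genes, the multigroup test called 51 as reported, 173 with the block, 129 with edgeR and the block, 29 with edgeR, 274 with DESeq2, 31 with no filter and 25 without a trend. DESeq2 called 131, 20, 15, 173, 130 and 273 genes in the 6 pairwise comparisons against 24, 1, 1, 35, 18 and 33 as reported (cMyc+prePB against cMyc+early, cMyc+early against cMyc+lateCD23int, cMyc+lateCD23int against cMyc+lateCD23lo, cMyc+early against cMyc+lateCD23lo, cMyc+prePB against cMyc+lateCD23int and against cMyc+lateCD23lo).

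Each regulator's log2 difference in its comparison of lowest p kept its direction under the alternatives, except Ep300 (cMyc+early minus cMyc+lateCD23lo), which ranged from -0.74 to 0.067 without 1 library. Leaving out 1 library, the log2 differences of paralog ratios ranged from -0.62 to 0.53 for Ezh2/Ezh1, -0.98 to 0.24 for Crebbp/Ep300 and -0.020 to 0.71 for Kmt2d/Kmt2c between cMyc+prePB and cMyc+early, and from -0.23 to 0.26 for Kmt2d/Kmt2c and -0.13 to 0.23 for Tet2/Tet3 between cMyc+early and cMyc+lateCD23lo, crossing 0. The cause was not tested. Scalings moved the median of all genes by less than 0.1.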
